A study of Mus musculus with 6 samples.

Results

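The genes of cholesterol synthesis and of its control were followed in spinal cord RNA of mouse embryos at E13.5. They were 26 genes taken by symbol: 19 enzymes, 5 regulators, a sterol carrier and an efflux transporter. All 26 had a row among the 55433 genes counted in each library, and all 26 were among the 17711 genes kept by a filter on low counts. RNA came from whole spinal cords of C57BL/6J embryos. The control group had 3 libraries of genotype NFIA-ff, and the group labelled NFIAcKO had 3 libraries of genotype NFIA-ff with Nestin-cre. The NFIA-ff genotype was thus common to all 6 libraries, and cre was carried by the NFIAcKO group alone. Nestin-cre acts chiefly in neural progenitors and the cells they give rise to. The stated aim of the series was the role of NFIA, a transcription factor of the nuclear factor I family, in motor neuron development.

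Cells make cholesterol from acetyl-CoA in a series of enzyme steps, by way of mevalonate, farnesyl diphosphate, squalene and lanosterol. When sterols in the endoplasmic reticulum run low, SCAP escorts the SREBP transcription factors to the Golgi, where they are cleaved and then switch on genes of the whole pathway; when sterols are plentiful, INSIG proteins hold SCAP back. The embryonic nervous system makes most of its own cholesterol, and inherited loss of several of these enzymes disturbs brain development.

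The counts assigned to genes summed to between 43393053 and 51465763 per library. Nfia itself was higher in the libraries labelled NFIAcKO, with 5144, 5016 and 5636 counts in replicates 1 to 3 of that group against 2641, 3110 and 3683 in those of control (log2 fold change 0.75, edgeR adjusted p 0.00310). The count of the targeted gene therefore goes against a loss of its RNA, although the counts do not show which exons were covered, and the groups are called by their labels throughout. Log2 CPM, gene counts scaled to a common library size, also changed with exonic length by library: the slope per doubling of length was -0.117 to -0.0187 in control and 0.0395 to 0.0931 in NFIAcKO libraries. Marker sums took total gene counts as the library size, without the TMM scaling used for the sterol genes. Summed CPM of 12 radial glia and astrocyte markers was 1930 to 2506 in control and 1610 to 1758 in NFIAcKO libraries. Of the 11 tested, 6 were lower and 1 higher. Neuronal markers summed to 10546 to 11341 against 12017 to 12314, with 4 of 10 higher, and microglial markers to 112 to 120 against 79.1 to 92.3, with 4 of 9 lower and Trem2 at 0 in all libraries. Of the other marker lists, 3 of 10 progenitor, 2 of 10 blood and 5 of 10 vessel genes were higher, and 1 progenitor, 2 vessel and 1 of 9 ganglion and Schwann cell genes lower, while 0 of 10 meningeal and 0 of 7 muscle genes were called. Of all genes tested, 7.86% were called higher and 6.08% lower by the same rule, which is given below. The marker lists were chosen with earlier results of these data known. The part of these differences in the results below was not tested, and in whole tissue fewer cells of a type and less RNA per cell cannot be told apart.

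Transcripts of the cholesterol pathway differed little between the groups. A gene was called higher or lower at a Benjamini-Hochberg adjusted p under 0.05 in edgeR's quasi-likelihood test across all genes tested, and fold changes are NFIAcKO over control. By that rule 1 of the 26 genes was called higher, Lss, the lanosterol synthase that folds squalene epoxide into the sterol ring system, and 0 were called lower. That is 3.85% of the genes, against 13.9% of all genes tested. Among all genes, 7.86% were called higher and 6.08% lower. With upper quartile scaling the shares of all genes were 5.97% higher and 8.10% lower. At an unadjusted p under 0.05 the count was 3 (Lss, Srebf2 and Insig2), or 11.5%, against 29.8% of all genes. Of the 26 log2 fold changes, 12 were above 0, and the median of the 26 was -0.02 beside -0.01 for all genes tested. The median size of a change, without its sign, was 0.11 on the log2 scale beside 0.20 for all genes. The 95% interval of the fold lay within 1.5-fold either way for 24 of the 26 genes, or 92.3%, and for 58.3% of all genes tested. Idi1 and Msmo1 were the exceptions, with lower bounds of -0.65 and -0.68 on the log2 scale. The sterol genes were also more strongly counted than most, with a median log2 CPM of 5.72 beside 4.10.

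**Figure D1:**
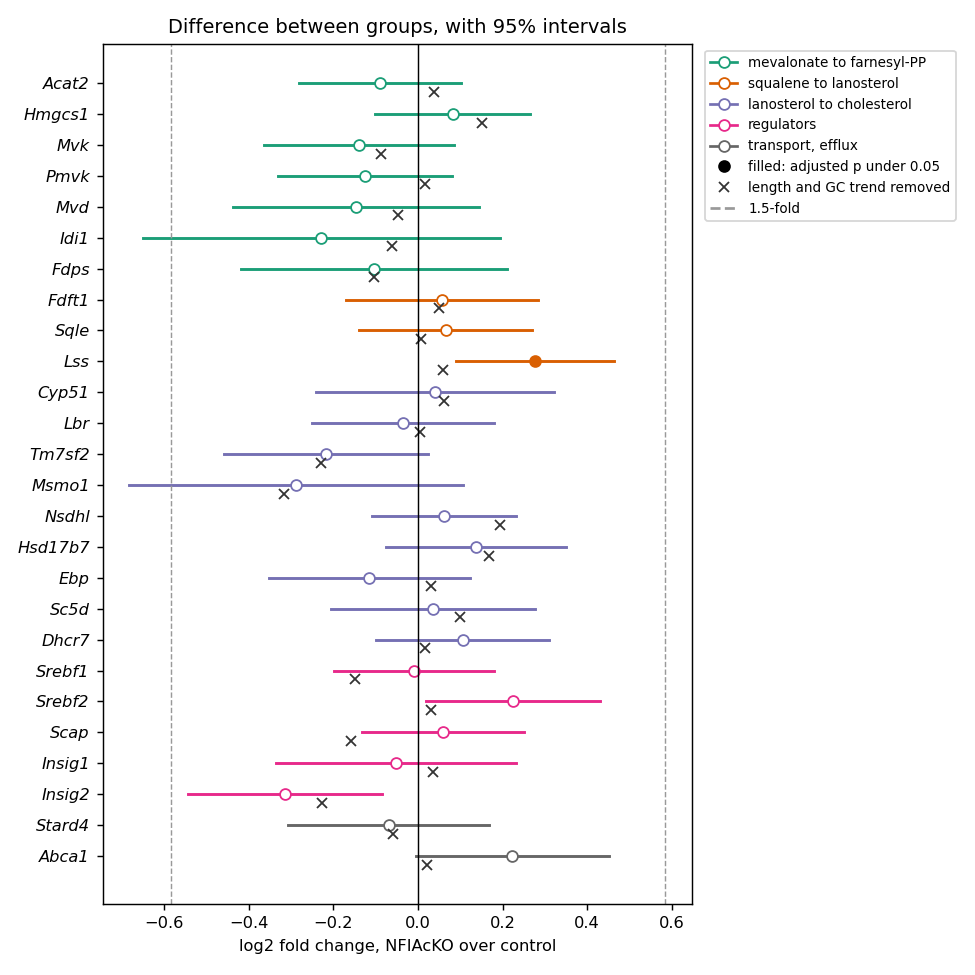
The log2 fold change of each gene, NFIAcKO over control, is drawn as a point with its 95% interval from edgeR's quasi-likelihood fit of 3 against 3 libraries, coloured by step. A filled point marks an adjusted p under 0.05, crosses give the value with the length and GC trend removed, and dashed lines mark 1.5-fold. All points lie between -0.31 (Insig2) and 0.28 (Lss).

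Summed over the 26 genes, expression was 2472 ± 141 CPM (SD, n = 3) in control and 2552 ± 220 CPM in NFIAcKO libraries. The library sums were 2559, 2547 and 2309 CPM in control replicates 1 to 3 and 2528, 2782 and 2344 CPM in NFIAcKO replicates 1 to 3. The groups overlapped, and replicate 3 was the lowest of its group in both.

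Promoters were read to show which letters these genes share near their starts. RefSeq promoter windows on GRCm38.p6, from 250 bases before to 50 after the annotated start, were at hand for 22 of the 26 genes, in 30 windows; Fdps, Fdft1, Sqle and Stard4 had none. The windows of 5 genes are given 5′ to 3′ on the gene's strand: Hmgcs1 as the gene with the highest level, Idi1 and Msmo1 for their spread between libraries, Lss for its call and Insig2 for the largest change. Capitals mark matches on either strand to TCACNCCAC, the core of the sterol element that SREBP binds, and to CCAAT, the site of the factor NF-Y.
Hmgcs1, chr13:119690101-119690400, plus strand: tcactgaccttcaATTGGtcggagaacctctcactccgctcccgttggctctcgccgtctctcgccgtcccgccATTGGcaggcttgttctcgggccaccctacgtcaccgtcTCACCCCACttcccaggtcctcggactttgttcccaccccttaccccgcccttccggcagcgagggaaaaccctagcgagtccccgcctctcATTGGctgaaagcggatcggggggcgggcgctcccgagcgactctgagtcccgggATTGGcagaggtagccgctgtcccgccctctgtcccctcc
Idi1, chr13:8885356-8885655, plus strand: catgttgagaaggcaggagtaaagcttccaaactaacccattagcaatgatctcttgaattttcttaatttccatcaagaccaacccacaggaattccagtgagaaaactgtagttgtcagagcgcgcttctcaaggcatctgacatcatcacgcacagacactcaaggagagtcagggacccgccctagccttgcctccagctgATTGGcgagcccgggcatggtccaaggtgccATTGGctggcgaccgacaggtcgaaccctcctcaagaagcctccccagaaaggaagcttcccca
Msmo1, chr8:64733529-64733828, minus strand: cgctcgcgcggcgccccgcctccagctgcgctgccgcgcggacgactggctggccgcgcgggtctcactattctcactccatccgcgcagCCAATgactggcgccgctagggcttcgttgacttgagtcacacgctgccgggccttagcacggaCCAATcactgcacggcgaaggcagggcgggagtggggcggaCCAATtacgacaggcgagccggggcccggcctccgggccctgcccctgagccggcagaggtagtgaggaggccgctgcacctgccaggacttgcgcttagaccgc
Lss, chr10:76531355-76531654, plus strand: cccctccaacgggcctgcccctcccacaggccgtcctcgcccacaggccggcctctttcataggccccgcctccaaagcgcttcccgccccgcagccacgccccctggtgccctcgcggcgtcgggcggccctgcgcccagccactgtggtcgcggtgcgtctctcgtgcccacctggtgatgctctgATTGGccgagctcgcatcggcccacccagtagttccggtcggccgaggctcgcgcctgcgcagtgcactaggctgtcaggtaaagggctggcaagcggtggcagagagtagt
Insig2, chr1:121332540-121332839, minus strand, the farthest upstream of its 3 windows: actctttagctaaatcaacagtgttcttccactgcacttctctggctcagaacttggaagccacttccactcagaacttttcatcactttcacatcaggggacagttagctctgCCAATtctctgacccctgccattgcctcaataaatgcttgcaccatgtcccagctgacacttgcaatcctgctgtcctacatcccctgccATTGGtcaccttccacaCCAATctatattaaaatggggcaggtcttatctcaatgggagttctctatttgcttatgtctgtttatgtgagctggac

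TCACNCCAC was found in the window of Hmgcs1 alone, as TCACCCCAC starting 137 bases before the start, which is 1 of 22 genes or 4.55%, against 1.44% of the 12470 tested genes with a window and 1.44% of all 27025 genes in the table. CCAAT was found in 19 of the 22, or 86.4%, against 42.3% of tested and 41.1% of all genes. Hmgcs1 held 4 matches, Msmo1 3, Idi1 2 and Lss 1. The printed window of Insig2 held 3 and its other windows 0. GGGCGG, the box of the factor SP1, was found in 21 of 22, or 95.5%, against 65.6% of tested and 38.2% of all genes. CACGTG was found in 6, or 27.3%, against 11.1% of tested and 8.09% of all genes. Both strands were searched, and no match of these motifs overlapped another in these windows. A gene was counted if any of its windows held a match. The 22 sterol genes had 30 windows, and all 27025 genes had 32851. Insig2, Pmvk, Srebf1 and Dhcr7 each had windows with and windows without CCAAT. A match is a description of letters and not of binding. Only exact matches within these windows were searched, so a missing match does not show that a site is missing.

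The early, mevalonate enzymes were uncalled, all 7 of them. Hmgcs1, the cytosolic HMG-CoA synthase that condenses acetoacetyl-CoA with a further acetyl unit, had 585, 587 and 540 CPM in control replicates 1 to 3 and 596, 652 and 565 CPM in NFIAcKO replicates 1 to 3. The groups overlapped, with a log2 fold change of 0.08 ± 0.09 (SE) and an adjusted p of 0.57. Its 95% interval was -0.10 to 0.27. Hmgcs1 was the only mevalonate enzyme with a fold change above 0. The other 6 ranged from -0.23 (Idi1) to -0.09 (Acat2), and the median of the 7 was -0.13. Acat2 makes acetoacetyl-CoA, the kinases Mvk and Pmvk and the decarboxylase Mvd turn mevalonate into isopentenyl diphosphate, and Fdps joins such units into farnesyl diphosphate. Idi1, which interconverts the smallest isoprenoid units, had 20.6, 26.2 and 14.9 CPM in control and 18.2, 20.2 and 14.3 CPM in NFIAcKO replicates 1 to 3. It was low in replicate 3 of both groups and high in replicate 2 of both, the groups overlapped, and its adjusted p was 0.47.

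From squalene to lanosterol the log2 fold changes of all 3 enzymes were above 0. Fdft1, squalene synthase, ranged from 151 to 188 CPM in control and from 155 to 203 CPM in NFIAcKO libraries. Sqle, the squalene epoxidase that is a rate-limiting step, ranged from 170 to 194 CPM and from 168 to 216 CPM. The log2 fold changes of Fdft1 and Sqle were 0.06 and 0.07, with adjusted p of 0.77 and 0.69, and the groups overlapped for each.

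Lss (chr10:76531588-76557138, plus strand, GRCm38) had 59.0, 50.2 and 55.4 CPM in control replicates 1 to 3 and 63.8, 72.2 and 63.5 CPM in NFIAcKO replicates 1 to 3. Every NFIAcKO library was above every control library. Lss was 1.21-fold higher, with a log2 fold change of 0.28 ± 0.09 (SE), a 95% interval of 0.09 to 0.46 and an adjusted p of 0.0477. Groups that do not overlap were found for 2 of the 26 genes, Lss and Tm7sf2, against 33.4% of all genes tested. The call of Lss ended when any library but control replicate 3 was left out, with edgeR adjusted p of 0.0747 and 0.168 without control replicates 1 and 2, and of 0.105, 0.199 and 0.0908 without NFIAcKO replicates 1, 2 and 3. Lss has 10787 bases of annotated exon, against a median of 3976 for genes tested. With the trend of each library with exonic length and GC content removed, its log2 fold change was 0.06 (adjusted p 0.69), 0 of the 26 genes were called, and 7.69% of all genes were. With length and GC taken from the longest coding transcript, of 4667 bases, it was 0.16 (adjusted p 0.22). An exon of 4930483K19Rik on the opposite strand overlaps Lss in part, 4.4% of the 50-base stretches of the coding transcript occur in other genes, and whether reads were counted by strand is not given in the sources used here.

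The last steps, from lanosterol to cholesterol, held 9 enzymes, of which 5 had fold changes above 0 and 4 below, none of them called, with a median of 0.03. Cyp51, the demethylase that acts on lanosterol, had 237, 249 and 178 CPM in control and 214, 266 and 203 CPM in NFIAcKO replicates 1 to 3, with an adjusted p of 0.87. Replicate 2 was the highest and replicate 3 the lowest in both groups, so that the spread within a group exceeded the difference between them. Msmo1 (chr8:64718139-64733792, minus strand), the oxidase that begins removal of a pair of methyl groups from the ring, had 96.1, 115 and 70.4 CPM in control and 78.4, 86.4 and 66.0 CPM in NFIAcKO replicates 1 to 3. It showed the same order of libraries, and its log2 fold change of -0.29 ± 0.17 (SE) did not pass the test (adjusted p 0.31). Its edgeR adjusted p was 0.0492 with the number in the deposited names as a block and 0.0233 without the filter on low counts. It was 0.22 with upper quartile scaling and 0.39 with the length and GC trend removed, and 0.13 in DESeq2. Msmo1 was called in 5 of the 19 alternatives. Nsdhl and Hsd17b7, which complete that demethylation, had log2 fold changes of 0.06 and 0.14. Nsdhl was the most even of the 26 genes, with 49.8 to 51.2 CPM in control and 49.7 to 56.3 CPM in NFIAcKO libraries.

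Of the sterol reductases that act after the lanosterol demethylase, Tm7sf2 had 22.2, 27.9 and 21.4 CPM in control and 20.4, 19.9 and 21.3 CPM in NFIAcKO replicates 1 to 3. Every control library was above every NFIAcKO library, by a narrow margin, and the log2 fold change of -0.22 did not pass the test (adjusted p 0.22). Lbr, the lamin B receptor that shares this activity, ranged from 26.7 to 27.8 CPM and from 23.6 to 29.3 CPM, and the groups overlapped. Ebp, Sc5d and Dhcr7 carry out the closing isomerase, desaturase and reductase steps, and loss of human DHCR7 causes Smith-Lemli-Opitz syndrome. Their log2 fold changes were -0.12, 0.03 and 0.11, with adjusted p of 0.53, 0.87 and 0.50.

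Among the regulators, 2 of 5 had fold changes above 0 and none was called. Srebf2, which encodes SREBP-2, the main activator of the sterol genes, had 279, 247 and 308 CPM in control and 331, 350 and 294 CPM in NFIAcKO replicates 1 to 3. The groups overlapped through the third replicates, and the log2 fold change was 0.23 ± 0.10 (SE), with a 95% interval of 0.02 to 0.43 and an adjusted p of 0.13. With the length and GC trend removed it was 0.03. Srebf1, whose products also drive fatty acid synthesis, and Scap had log2 fold changes of -0.01 and 0.06.

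The paralogs that hold SCAP back differed in their values. Insig2 (chr1:121304353-121332589, minus strand) had 35.6, 40.2 and 30.2 CPM in control and 30.3, 27.7 and 27.3 CPM in NFIAcKO replicates 1 to 3. The groups overlapped by a single pair of libraries, control replicate 3 and NFIAcKO replicate 1. Its log2 fold change of -0.31 ± 0.11 (SE), with a 95% interval of -0.54 to -0.09, was the largest in size of the 26 and missed the threshold, with an adjusted p of 0.0637 in edgeR and 0.0326 in DESeq2. In edgeR it was 0.0335 with the number in the deposited names as a block, 0.0261 without the filter on low counts and 0.0463 with upper quartile scaling. It was 0.0723 in limma-voom and, in edgeR, 0.0537 with the replicate number as a block. With the length and GC trend removed the log2 fold change of Insig2 was -0.23 (edgeR adjusted p 0.14). Insig2 was called in 6 of the 19 alternatives. Insig1, itself a strong SREBP target, had 53.8 ± 10.2 CPM (SD, n = 3) in control and 51.9 ± 7.08 CPM in NFIAcKO, with overlapping groups and a log2 fold change of -0.05. The difference between the changes of Insig1 and Insig2 was not tested.

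For sterol movement, Stard4, a cytosolic sterol carrier, had a log2 fold change of -0.07 (adjusted p 0.72). Abca1, the transporter that exports cholesterol and is induced by the liver X receptors when sterols are high, had 62.3, 64.3 and 71.1 CPM in control and 73.1, 66.3 and 91.4 CPM in NFIAcKO replicates 1 to 3. Only NFIAcKO replicate 2 lay inside the control range, and the log2 fold change of 0.22 ± 0.11 (SE) did not pass the test (adjusted p 0.18). With the length and GC trend removed it was 0.02.

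**Figure D2:**
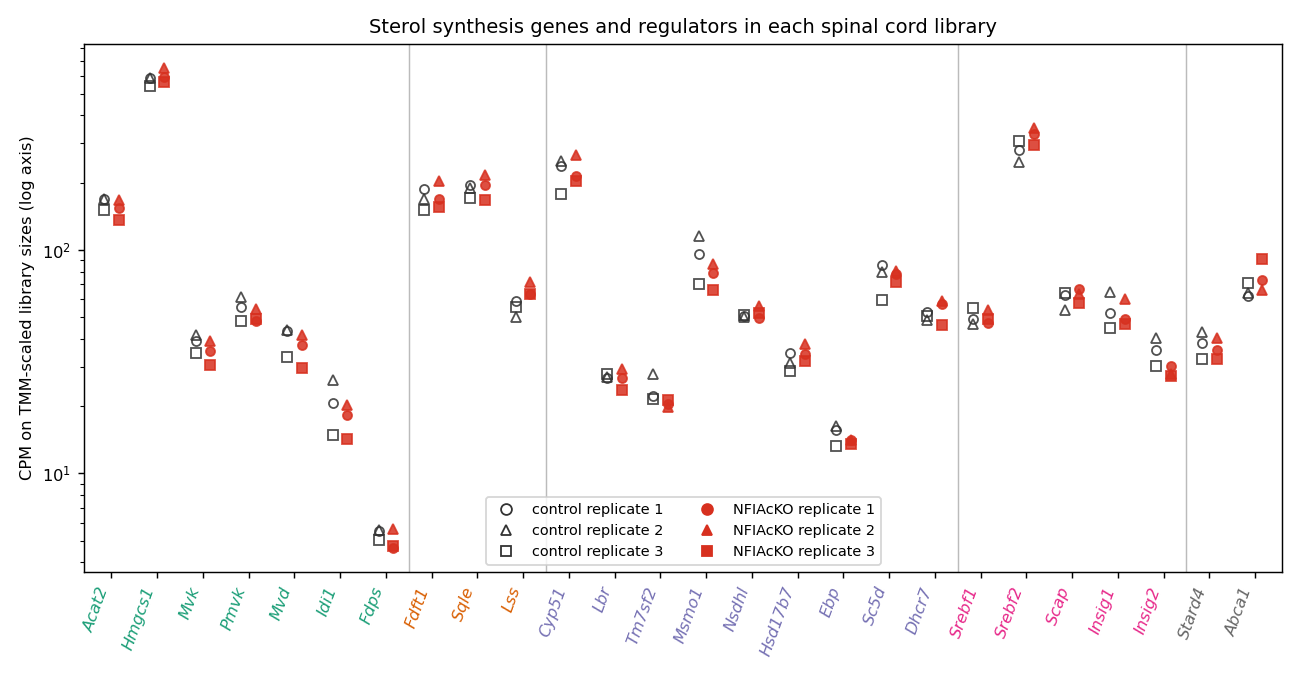
Each gene's CPM on TMM-scaled library sizes is shown on a log axis for the 3 control and the 3 NFIAcKO libraries, 1 point per library, in the order of the pathway. The 2 groups of points overlap for 24 of the 26 genes; they separate for Lss, higher in NFIAcKO, and Tm7sf2, higher in control.

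Many of the sterol genes were low in replicate 3 or high in replicate 2 of both groups. Replicate 3 was the lowest of its group in both groups for 15 of the 26 genes, or 57.7%, against 16.1% of all genes tested. Replicate 2 was the highest in both groups for 11 of them, or 42.3%, against 15.9%, and both patterns held for 9 of them, or 34.6%, against 7.11%. Replicate 2 exceeded replicate 3 in both groups for 17 genes, or 65.4%, against 27.8%. The median ratio of replicate 2 to replicate 3 was 1.12 in control and 1.19 in NFIAcKO, where all genes had medians of 1.005 and 1.02. These counts are a description with no test, since the genes of a library share its preparation and depth.

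Among the widest ratios were those of Idi1, at 1.76 in control and 1.42 in NFIAcKO, and of Msmo1, at 1.64 and 1.31. Insig1 followed at 1.45 and 1.28, Cyp51 at 1.40 and 1.31, Mvd at 1.33 and 1.42 and Stard4 at 1.33 and 1.24. These include enzymes from both ends of the pathway together with sterol-responsive genes that are no enzymes. Among the regulators, Insig1 followed this order in both groups and Insig2 in control. Srebf1, Srebf2 and Scap did not in control, where replicate 2 was the lowest of all 6 libraries for each. Srebf2 and Scap were still lowest in replicate 3 within NFIAcKO. Abca1 ran the other way and was highest in replicate 3 of both groups. In the deposited names replicate 3 of both groups carries another number than replicates 1 and 2, and what that number stands for is not stated. Replicate 2 of both groups held Xist at 342 and 192 CPM, against at most 0.0633 CPM in the other 4 libraries. The part of either in this order was not tested.

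**Figure D3:**
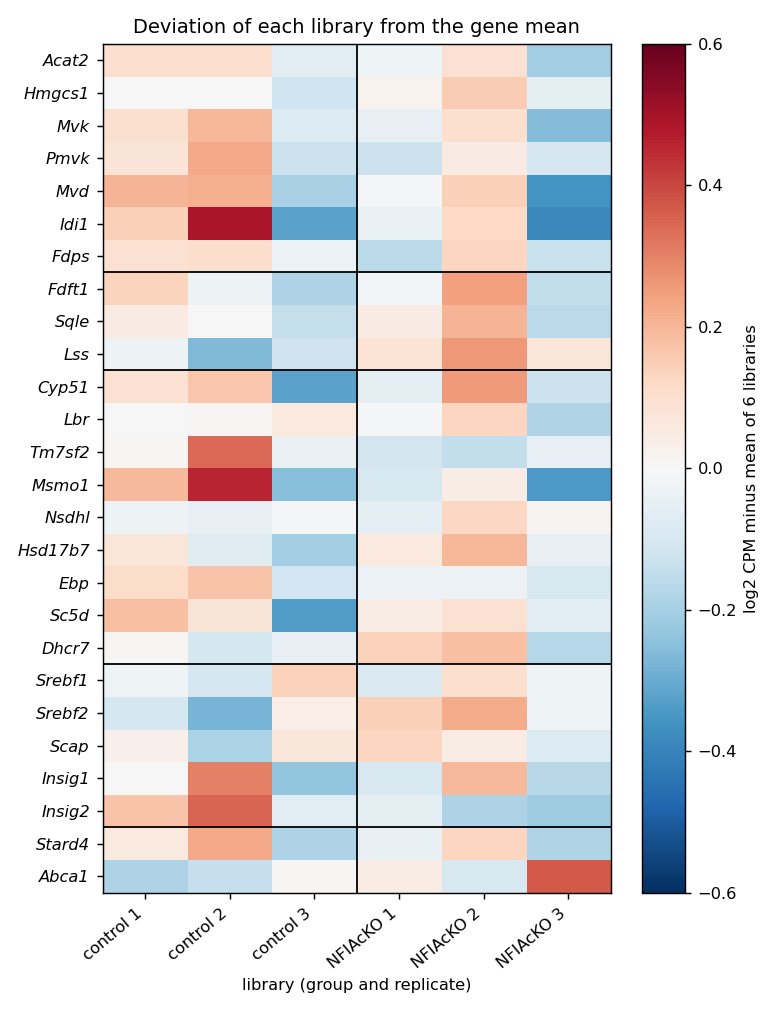
The heat map gives, for each gene and library, the deviation of log2 CPM from the gene's mean over the 6 libraries, on a scale of -0.6 to 0.6. The median deviation of the 26 genes by library was 0.06, 0.09 and -0.12 for the controls, in order of replicate, and -0.03, 0.13 and -0.13 for NFIAcKO.

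The number of genes called rose without control replicate 3, left out alone or together with NFIAcKO replicate 3. Without control replicate 3, 6 of the 26 genes were called, or 23.1%, against 28.4% of all genes tested. Lss (log2 fold change 0.28, adjusted p 0.0171) and Srebf2 (0.30, 0.0106) were then higher, and Insig2 (-0.42, 0.00191), Msmo1 (-0.46, 0.00273), Idi1 (-0.42, 0.0289) and Pmvk (-0.22, 0.0429) were lower. Without replicate 3 of both groups, which leaves 2 libraries in each, 5 genes were called, or 19.2%, against 29.3%: Lss and Srebf2 higher, and Insig2, Msmo1 and Tm7sf2 lower. Leaving out any of the other 5 libraries left 0 of the 26 called, while 2.48 to 6.16% of all genes were. The share of sterol genes called stayed under the share of all genes in each of these fits. Without the filter on low counts it did not, with 3 of the 26 called (Lss, Insig2 and Msmo1), or 11.5%, against 10.2%.

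Per length, the level of the sterol genes spanned a wide range. Hmgcs1 was highest in control, at 124 ± 5.80 CPM per kb of exon (SD, n = 3). Acat2 followed at 63.9, Cyp51 at 50.1, Fdft1 at 40.01, Srebf2 at 38.7 and Sqle at 33.3 CPM per kb, all in control. By this measure Lss, at 5.09, was the lowest but for Fdps, at 1.28 CPM per kb. The measure divides by all annotated exon bases, 10787 for Lss and 6144 for Msmo1. Their longest coding transcripts have 4667 and 2044 bases, so the order of levels depends on the length used. The level of Fdps is uncertain, since 86.4% of the 50-base stretches of its longest coding transcript also occur in other annotated genes, among them Gm43738 and Gm3571, and reads that fit several places or genes were set apart in the counting. The same share was 45.9% for Acat2, whose near copy is Acat3, 30.7% for Fdft1, 30.5% for Idi1, 13.6% for Hmgcs1 and 13.1% for Scap. Tm7sf2 shares exonic bases with Vps51 on the same strand.

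**Figure D4:**
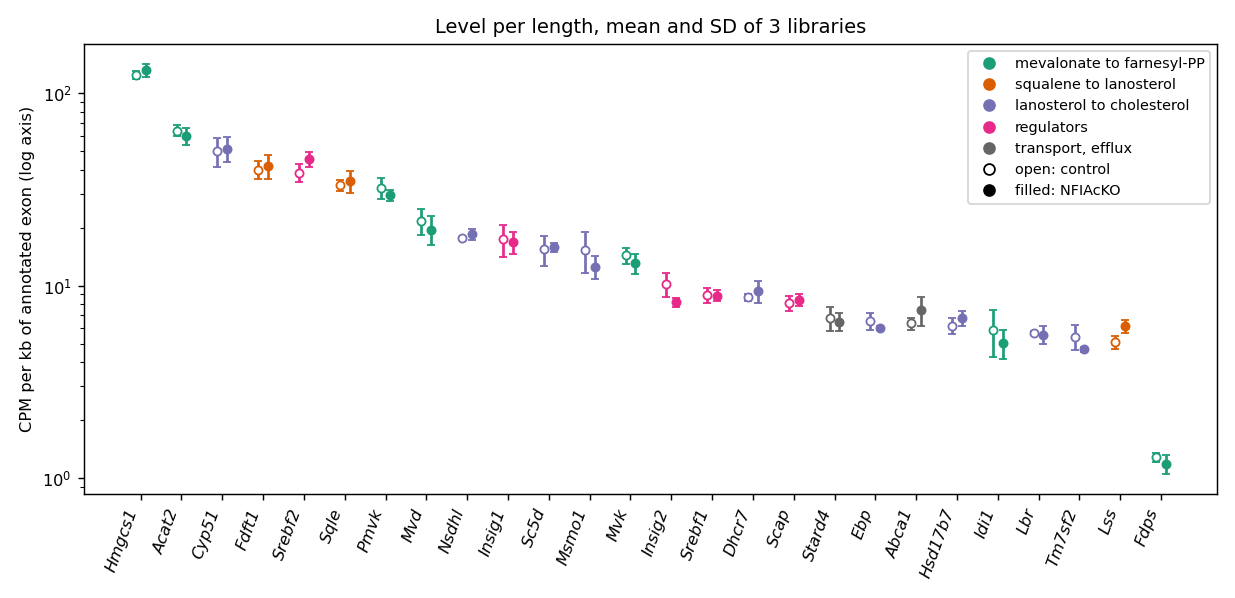
Points give each gene's mean CPM per kb of annotated exon on a log axis, open for control and filled for NFIAcKO, with bars for the SD over 3 libraries and colours for the step. Hmgcs1 stands above all others in control, at 124 CPM per kb, and Fdps is at 1.28.

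Genes of neighbouring branches were called about as often as genes in general. Of the 66 genes tested in 4 lists, 5 (7.58%) were called higher and 4 (6.06%) lower, beside the 7.86% and 6.08% of all genes. In the fatty acid synthesis list, 2 of 16 were higher, and the median log2 fold change was 0.11. Fasn, the fatty acid synthase, had 307, 285 and 387 CPM in control and 445, 447 and 428 CPM in NFIAcKO replicates 1 to 3, and every NFIAcKO library was above every control library (log2 fold change 0.43, adjusted p 0.0155). Acaca, the acetyl-CoA carboxylase that feeds it, rose by 0.38 on the log2 scale (adjusted p 0.0122). In the list of SREBP cleavage and sterol-regulated degradation, 1 of 16 was lower, Pgrmc1, a haem-binding membrane protein (-0.39, adjusted p 0.0238).

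In the list of sterol uptake, storage, transport and turnover, 3 of 21 tested genes were higher and 1 lower. Lrp1, a large lipoprotein receptor, had 160, 193 and 174 CPM in control and 245, 230 and 266 CPM in NFIAcKO replicates 1 to 3, without overlap (log2 fold change 0.49, adjusted p 0.00618). Lrp8, the Reelin and lipoprotein receptor, and Gramd1b, which moves sterol from the plasma membrane to the endoplasmic reticulum, rose, with log2 fold changes of 0.34 (adjusted p 0.0137) and 0.33 (adjusted p 0.0240). Npc2, the lysosomal protein that binds cholesterol, was lower, with a log2 fold change of -0.28 (adjusted p 0.0452). Of 13 genes of the isoprenoid branch, 2 were lower: Coq2, which attaches the isoprenoid tail of coenzyme Q (-0.62, adjusted p 0.0211), and Rce1, the protease that trims prenylated proteins (-0.36, adjusted p 0.0475).

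The 5 genes called higher in these lists have 10075 to 17717 bases of exon. With the length and GC trend removed none of them was called, with log2 fold changes from 0.06 (Acaca) to 0.14 (Fasn and Lrp8), and 0 of the 66 were higher, against 3.82% of all genes. Then 2 of the 66, or 3.03%, were lower, against 3.87% of all genes: Npc2 (-0.35, adjusted p 0.0312) and Scarb1, a lipoprotein receptor chosen for mention after its values were seen (-0.33, adjusted p 0.0400). Of the 6 fits that each left out 1 library, Lrp1 was called in 6, Acaca in 4, Fasn, Lrp8, Gramd1b and Coq2 in 2, and Pgrmc1, Npc2 and Rce1 in 1.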

How the data were processed

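Whole spinal cord RNA of 6 embryos was prepared on RNeasy columns and sequenced as Illumina Stranded mRNA libraries, per the labels' protocols. The authors deposited raw counts by gene symbol for each library. STAR 2.6.1a, HTSeq, DESeq2 and the build mm10 are listed, without their roles, per the submitters' processing notes. Neither the annotation release nor the strand setting is given in the sources used here. The 5 summary lines per file (16.9 to 19.4% of its total) were kept out.

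Counts were fitted in edgeR 4.0.16 (R 4.3.3) with TMM scaling, filterByExpr and the robust quasi-likelihood F test, over 17711 genes with Benjamini-Hochberg adjustment. SE was derived from F (the size of the log2 change divided by its root). Biological variation (BCV) was 11.5%. Coordinates, exonic lengths and GC came from the GENCODE annotation of GRCm38, which is mm10. The fit was also run on simulated counts, drawn without a replicate effect or a trend with length and GC. That run therefore does not show how the fit behaves where those are present.

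The members and gene lists were chosen with earlier results of these data known. Named genes are all 26, up to 4 called members with the smallest p in each further list, and Nfia. Alternatives were DESeq2 1.42.0, limma 3.58.1 voom, other scalings and filters, each library left out, blocks, an Xist covariate and trend removal. Removal of the trend used splines of 5 degrees of freedom per library, as offsets. The labels do not say that embryos came from separate litters, so p-values measure the spread between these samples. No pair of libraries within a group agreed within sampling noise.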

Additional observations from a re-analysis of the deposited data

How the results depend on the processing

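Over 19 alternatives, 430 of 494 log2 fold changes of the 26 genes kept their direction and side of the threshold, 11 lost the call, 16 gained it and 37 changed sign, none of these past the threshold and none above 0.159 in size. The count of sterol genes higher, 1, was 0 with limma-voom, upper quartile scaling, the replicate number as a block, and each removal of the length and GC trend (also with the block, and by longest coding transcript). It was 2 without both replicate 3 libraries and 0 to 2 with a library left out. The count lower, 0, was 1 with DESeq2 and with upper quartile scaling, 2 without a filter and with the number in the deposited names as a block, 3 without both replicate 3 libraries, 1 with trend removal and replicate block together, and 0 to 4 with a library left out. The share of sterol genes called exceeded that of all genes in 1 of the 19 alternatives, the fit without a filter (11.5% against 10.2%). For the 4 further lists, the 5 higher became 9 with DESeq2, 14 without both replicate 3 libraries, 1 to 13 with a library left out, and 0 under each trend removal. All genes called higher moved too, from 7.86% to 10.5% with DESeq2, 16.1% without both replicate 3 libraries, 1.55 to 14.8% with a library left out and 2.29 to 3.99% under trend removal. Their 4 lower became 7 without both replicate 3 libraries, 0 to 9 with a library left out, and 2 under each trend removal. Leaving out both replicate 3 libraries and the coding-transcript trend were chosen after seeing the data.

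Sign changes under trend removal, alone and with the replicate block, were Acat2 0.037 and 0.034, Pmvk 0.015 and 0.018, Lbr 0.0042 and 0.00069, Ebp 0.032 and 0.033, Scap -0.159 and -0.159, and Insig1 0.036 and 0.041, all as log2 fold changes. By longest coding transcript they were Pmvk 0.071, Fdps 0.081, Lbr 0.0059, Ebp 0.039, Scap -0.087, Abca1 -0.126 and Lrp1 -0.00027. With upper quartile scaling they were Cyp51 -0.0021 and Sc5d -0.0052, and without both replicate 3 libraries Cyp51 -0.018, Lbr 0.062, Sc5d -0.060 and Srebf1 0.075. With a library left out, Fdft1 ran from -0.057 to 0.133, Sqle from -0.021 to 0.145, Cyp51 from -0.100 to 0.125, Lbr from -0.110 to 0.030, Sc5d from -0.108 to 0.134, Srebf1 from -0.071 to 0.056, Scap from -0.026 to 0.103, Insig1 from -0.176 to 0.093 and Stard4 from -0.176 to 0.024. Lss was called in 8 of the 19 alternatives, Insig2 in 6, Msmo1 in 5, Srebf2 in 2, and Idi1, Pmvk and Tm7sf2 in 1 each. For Nfia and the 9 named genes of the further lists, 132 of 190 values kept direction and side, and 57 lost the call. The cause was not tested.

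Same-numbered libraries had correlations of their deviations of 0.0875, 0.120 and 0.119. A control and an NFIAcKO library of unlike number had correlations of -0.0894 to -0.0369, so each library correlated best with its own number. The labels do not give the numbers as pairs, and the main fit left them unpaired. In the fit with a replicate block, Lss had an adjusted p of 0.0681, Msmo1 of 0.0588 (0.0315 with trend removal as well) and 2472 genes were called in all, against 2468. The SE of Msmo1 was 0.09 with this block and 0.17 in the main fit, that of Idi1 0.10 and 0.19, and that of Lss 0.09 in both.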
